A study of Mus musculus with 10 samples.

Results

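Taf4b-deficient and Taf4b-wildtype germ cells of the fetal mouse ovary were compared here in 6 of the 10 samples of the study: the 4 libraries labelled Taf4b-deficient and the 2 labelled Taf4b-wildtype, chosen by genotype label alone. The other 4 libraries are Taf4b-heterozygous and enter only as help in estimating the spread and as a reference beside single genes. All came from female fetuses at E14.5, counted in embryonic days from mating, of strain C57BL/6, per the labels. Parents were homozygous for an Oct4-EGFP reporter, a green fluorescent protein gene at the Pou5f1 locus taken from a B6;129S4 stock, and heterozygous for the Taf4b mutation, so every library carries the reporter. Gonads were dissociated in trypsin, live GFP-positive cells were sorted, and total RNA was sequenced. Infertility is the labelled phenotype of the deficient genotype, and the wildtype and heterozygous genotypes are labelled fertile. The labels give each library 1 of 3 litter dates in 2019. January 29 is the date of deficient replicates 1 and 2, wildtype replicate 1 and heterozygous replicate 4. March 1 is that of deficient replicate 3 and wildtype replicate 2. March 7 is that of deficient replicate 4 and heterozygous replicates 1 to 3. The labels do not say which part of Taf4b the mutation removes, nor whether each library is a separate animal. Each p-value below therefore sets a difference against the scatter of these libraries, part of which may be technical.

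TAF4B is a germ cell-enriched relative of TAF4, a subunit of TFIID, the complex that binds core promoters and helps RNA polymerase II begin transcription. Female mice without it lose oocytes early and are infertile. Around E14.5 female germ cells leave the mitotic cycle, switch off pluripotency genes and enter meiosis, so small differences in developmental timing between fetuses change many transcripts together.

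Taf4b itself was the clearest difference between the groups. Its level in CPM (reads of the gene, scaled to a common library size) was 56.1, 62.1, 64.9 and 60.1 in deficient replicates 1 to 4 and 152 and 207 in wildtype replicates 1 and 2. The deficient libraries lay close together and well below both wildtype libraries. The 4 heterozygous libraries held 144, 223, 195 and 234 CPM, a range that took in both wildtype values. In edgeR's quasi-likelihood test the log2 fold change was −1.56 (SE 0.192, 95% interval −1.99 to −1.14), 2.96-fold lower, with a Benjamini-Hochberg adjusted p = 0.113 over 20317 genes, so it did not pass the threshold of 0.05. The gene spans 14783245 to 14900359 on the plus strand of chromosome 18 (GRCm38), and reads counted over the whole gene cannot tell a shortened transcript from an intact one.

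No gene passed that threshold: the share called was 0 percent of 20317 genes. At an unadjusted p under 0.05 stood 743 genes, 528 higher (2.6 percent of those tested) and 215 lower (1.06 percent) in deficient cells. Together they were 3.66 percent, fewer than a threshold of 0.05 passes on average where no gene differs. DESeq2 and limma-voom each called 1 gene, Taf4b in both. The 4 deficient libraries all lay above both wildtype libraries in 1315 genes (6.47 percent) and all below in 1255 (6.18 percent). In 59.1% of genes the wildtype libraries differed from each other by more than the fitted deficient-minus-wildtype difference. A difference of single libraries scatters more than a difference of group means, so this share does not show a wide spread. Log2 CPM of the wildtype libraries correlated at 0.983, and that of pairs of deficient libraries at 0.964 to 0.981.

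The intervals show how large a difference could have been missed. For 9772 genes, 48.1% of those tested, the 95% interval lay within 2-fold in either direction. Among the 10805 genes with a mean of at least 5 CPM this held for 8451 (78.2%). Counts were simulated gene by gene with the same samples and the fitted spread of each gene. The test called 8% of 50 genes changed 2-fold and 51.1% of 47 genes changed 3-fold. Variation that genes share across libraries, as with stage or litter date, was not simulated.

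The cells carried the germ cell markers their label requires. CPM summed over 8 germ cell markers ran from 5096 to 6269 in deficient and from 5344 to 5617 in wildtype libraries, and no single marker separated the groups. Dazl, an RNA-binding protein that licenses germ cells for meiosis, stood at 2547, 2780, 2295 and 2550 CPM in the deficient and 2625 and 2387 CPM in the wildtype libraries. Ddx4, a germ cell RNA helicase, had a log2 fold change of 0.03 (95% interval −0.38 to 0.44). Markers of other ovarian cells were low. The sum over 10 markers of supporting cells was 29.8 to 43.0 CPM in deficient libraries, and 17.7 and 47.2 CPM in wildtype replicates 1 and 2. For 10 stromal and mesothelial markers, 6 of them tested, it was 5.77 to 15.1 against 10.96 and 10.99 CPM, and for 12 blood and macrophage markers 14.8 to 25.9 against 27.5 and 14.8 CPM. The endothelial sum, 97.6 to 383 against 234 and 181 CPM, came nearly all from Pecam1, which germ cells also express; the endothelial receptor Kdr stayed at 0.787 CPM or less in the 6 libraries.

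Meiotic timing differed among the deficient libraries far more than between the groups. For each library the mean log2 CPM of 38 meiotic recombination genes minus that of 32 pluripotency and early germ cell genes was taken as a stage level. It was 0.668, 1.57, −1.02 and 0.189 in deficient replicates 1 to 4 and 0.367 and 0.686 in wildtype replicates 1 and 2. Deficient replicate 2 was the most advanced of the 6, deficient replicate 3 the least, and the wildtype libraries fell between them. The group means were 0.351 ± 1.08 (SD, n = 4) and 0.526 ± 0.225 (SD, n = 2), a difference of −0.18 (exact two-sided permutation p = 0.8; with 15 arrangements the smallest possible p is 0.0667). Leaving out deficient replicate 3 turned the difference to 0.28. Heterozygous replicates 1 to 4 had stage levels of −1.21, 2.38, 1.91 and 1.93, all outside the range of the 6 libraries compared. The main fit has no stage term, so their scatter in stage-linked genes is part of the spread it estimates. In bulk RNA, fewer cells at a stage and less RNA per cell cannot be told apart.

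**Figure D1:**
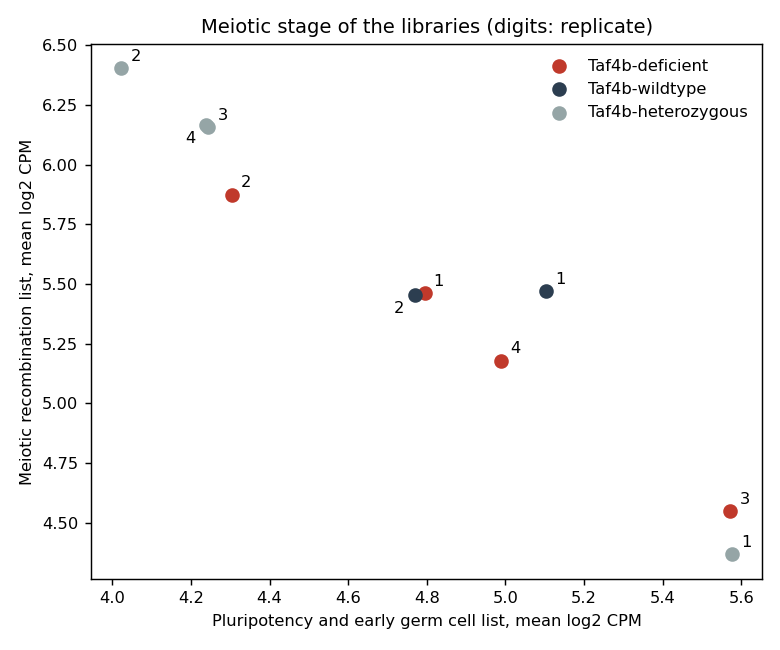
Average log2 CPM over meiotic recombination genes (vertical axis) against that over pluripotency and early germ cell genes (horizontal axis), 1 point per library, coloured by genotype and numbered by replicate. The 2 wildtype libraries sit in the middle of the diagonal, with deficient replicates 1 and 4 near them and deficient replicates 2 and 3 toward opposite ends.

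Single meiotic genes varied widely among the deficient libraries. Stra8, the retinoic acid-induced switch into meiosis, stood at 650, 991, 237 and 606 CPM in the deficient and 588 and 609 CPM in the wildtype libraries, with a log2 fold change of 0.05 (95% interval −1.11 to 1.22). Deficient replicate 3 was lowest and replicate 2 highest, so the deficient range enclosed both wildtype values. The same held for Sycp3, a component of the chromosome axis, at 149, 248, 56.8 and 112 against 142 and 126 CPM. The recombinase Dmc1 stood at 71.9, 114, 29.1 and 50.6 against 56.6 and 57.6 CPM. Nanog, a core pluripotency factor, ran the other way across libraries, at 41.1, 18.6, 96.9 and 39.2 against 56.7 and 39.2 CPM. Figla, the oocyte transcription factor that switches on zona pellucida genes, stood at 13.2, 26.5, 2.99 and 8.96 against 16.3 and 14.6 CPM.

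None of the meiotic lists stood apart. Of 20 meiotic entry genes tested 10 were higher and 10 lower in deficient cells (median log2 fold change −0.00), and of 16 axis and synaptonemal complex genes 8 were higher and 8 lower (0.02). Of the 38 recombination genes 27 were lower, with a median of −0.05 that became 0.09 without deficient replicate 3. Of 6 genes that attach telomeres to the nuclear envelope in meiosis, such as Terb1, 5 were lower, with a median of −0.10 that likewise turned to 0.13 without that library. The median over all 20317 genes was 0.00, and 50.6% were higher. In these 4 lists only Bmpr1a, a BMP receptor, stood at an unadjusted p under 0.05, with a log2 fold change of 0.42 (unadjusted p = 0.0478, edgeR adjusted p = 0.999909). That of Bmpr1a was 0.20 without wildtype replicate 1 and 0.68 without wildtype replicate 2.

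Of the other early oocyte transcription factors, Nobox stood at 0.189 to 0.954 CPM in deficient and 0.661 and 0.681 CPM in wildtype libraries, and Lhx8 at 0.821 to 2.23 against 0.925 and 1.98 CPM. Of 17 oocyte differentiation genes tested 9 were higher and 8 lower, with a median log2 fold change of 0.01.

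Deficient replicates 1 and 4 were then compared with the wildtype libraries alone, since they lie nearest to them in stage. These libraries were picked on measured meiotic and pluripotency levels, so those lists get no test here. In a fit of 8 libraries no gene passed (0 percent of 20030). At an unadjusted p under 0.05 stood 401 genes that were higher (2 percent) and 235 that were lower (1.17 percent). Taf4b had a log2 fold change of −1.62 (edgeR adjusted p = 0.999929). DESeq2 called 2 genes in this comparison, Taf4b (log2 fold change −1.62, adjusted p = 0.00212) and Hbb-y, an embryonic globin. Hbb-y had 299 reads in wildtype replicate 2 and 0 in the other 3 libraries compared, so its call rests on 1 library. In simulated counts the edgeR test called 2.04% of 2-fold and 16% of 3-fold changes in this smaller comparison. The 2 comparisons share both wildtype libraries, so their values are not independent.

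Among the partners of TAF4B in TFIID, Taf5 and Taf10 stood out by size. Taf5, a scaffold subunit with WD40 repeats, was at 169, 250, 179 and 270 CPM in the deficient and 87.9 and 155 CPM in the wildtype libraries. The groups did not overlap, but wildtype replicate 2 lay close to the lowest deficient value. Its log2 fold change was 0.84 (SE 0.264, 95% interval 0.26 to 1.42; edgeR unadjusted p = 0.00878, adjusted p = 0.999909). Taf10, a histone-fold subunit shared with the SAGA coactivator, was at 102, 160, 107 and 135 CPM against 51.6 and 99.1 CPM, with a log2 fold change of 0.74 (95% interval 0.17 to 1.32). Both genes were as high in the heterozygous libraries, at 199 to 263 CPM for Taf5 and 136 to 157 CPM for Taf10. Without wildtype replicate 1 their log2 fold changes were 0.49 and 0.35, and without wildtype replicate 2 they were 1.298 and 1.29, so the size depends on which wildtype library is kept.

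The other subunits differed less between the groups. Of 17 TFIID genes other than Taf4b that were tested, 13 were higher and 4 lower in deficient cells, with a median log2 fold change of 0.15 and a range of 0.07, without deficient replicate 2, to 0.19 over the alternative analyses. Besides Taf5 and Taf10, the histone-fold subunit gene Taf13 and Tbp, which encodes the TATA-binding protein, did not overlap between the groups in CPM, as 6.47 percent of all genes did not in this direction. On the deposited TPM scale Tbp, Taf10 and Taf13 overlapped, with Tbp at 23.2 to 40.4 TPM in deficient and 36.1 and 24.7 TPM in wildtype libraries. Tbp had a log2 fold change of 0.15 (95% interval −0.17 to 0.47). The 4 lower genes were Taf8, Taf1, Taf2 and Taf11, at −0.04 to −0.24. Taf4, the widely expressed relative of Taf4b, stood at 7.68, 6.61, 9.69 and 4.67 CPM in the deficient and 7.07 and 6.77 CPM in the wildtype libraries. Its log2 fold change was 0.05 (95% interval −0.61 to 0.71). On the authors' deposited TPM scale, which corrects for transcript length, Taf4b was at 19.6 to 21.4 TPM in deficient and 51.8 and 78.3 TPM in wildtype libraries, and Taf4 at 1.91 to 3.75 against 2.45 and 2.84 TPM. Per length, Taf4b therefore exceeded Taf4 in all 6 libraries, the deficient ones included.

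The germ cell variants Taf7l and Taf9b varied with stage. Taf7l was at 172, 368, 44.1 and 104 CPM in deficient replicates 1 to 4 and 178 and 151 CPM in the wildtype libraries; within the deficient group this is the order of the stage levels. Taf9b was at 29.6, 43.2, 14.0 and 27.6 against 22.4 and 28.6 CPM. The oocyte paralog Tbpl2 had a deposited level of 0.0190 TPM in deficient replicate 2 and 0 in the other 5 libraries.

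**Figure D2:**
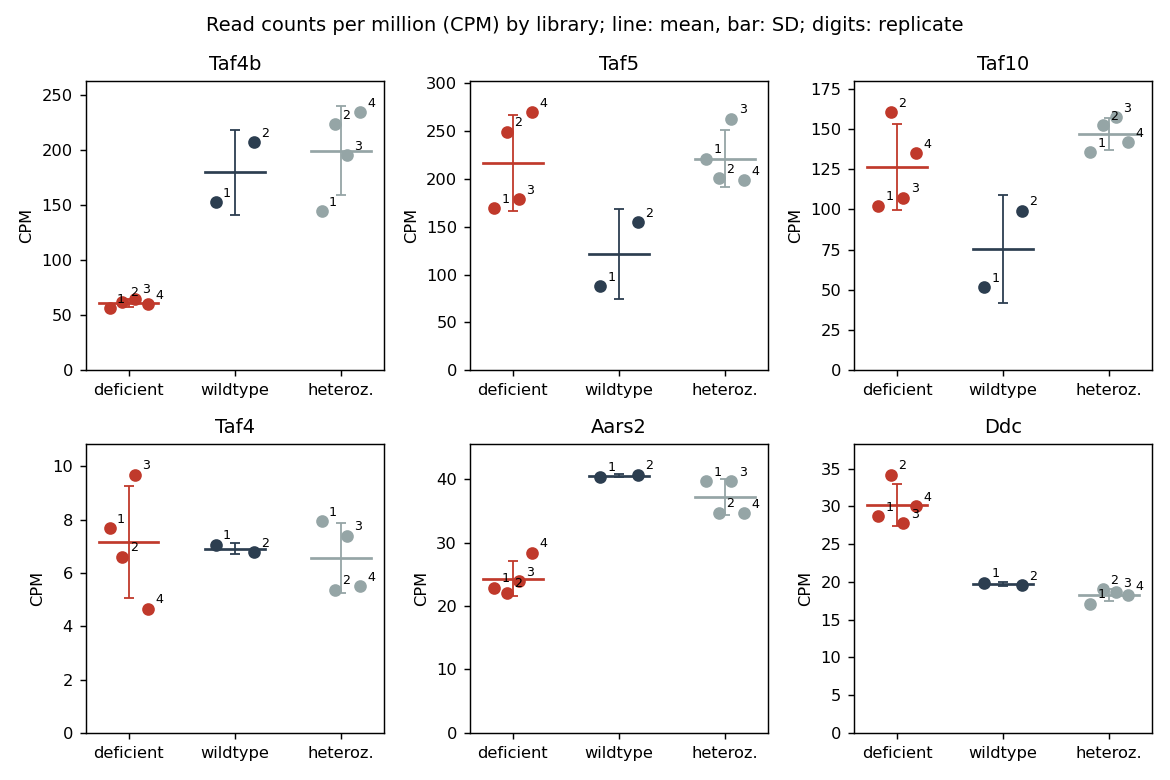
CPM of Taf4b, 3 other TFIID genes and 2 leading genes in each library, by genotype; points are libraries numbered by replicate, lines are means and bars SD. Taf4b is at 56.1 to 64.9 CPM in the 4 deficient libraries and at 144 CPM or more in all others, Taf5 and Taf10 are lowest in wildtype replicate 1, and Ddc and Aars2 differ in the deficient libraries from both other genotypes.

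Outside TFIID, the genes with the smallest unadjusted p among those whose groups did not overlap are described below. They were chosen by that p and that separation, so both are descriptions and not support, and their edgeR adjusted p was 0.999909 throughout. Aars2 came first after Taf4b. It encodes the mitochondrial alanyl-tRNA synthetase, and recessive variants of the human gene are known to cause ovarian failure with loss of brain white matter. It stood at 22.9, 22.1, 23.9 and 28.4 CPM in the deficient and 40.4 and 40.7 CPM in the wildtype libraries, with a log2 fold change of −0.74 (SE 0.16, 95% interval −1.09 to −0.38). The heterozygous libraries lay between the groups, at 34.7 to 39.7 CPM. Leaving out each library in turn kept its log2 fold change between −0.82 and −0.69. Over all 17 mitochondrial tRNA synthetase genes tested the median was 0.02, with 9 higher and 8 lower. Yars2 was at 0.42, Wars2 at −0.36 and Lars2 at −0.96, the last with a 95% interval of −3.26 to 1.33. Yars2 went to 0.15 without wildtype replicate 1 and to 0.76 without wildtype replicate 2, and Lars2 to −0.11 without the libraries low in Gm23935, described below.

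Ddc was among the leading genes that were higher. It encodes aromatic L-amino acid decarboxylase, which makes dopamine and serotonin. It stood at 28.7, 34.2, 27.8 and 30.0 CPM in the deficient and 19.9 and 19.5 CPM in the wildtype libraries, with a log2 fold change of 0.62 (95% interval 0.25 to 0.98). The heterozygous libraries, at 17.1 to 19.01 CPM, lay below both wildtype libraries. Its log2 fold change stayed between 0.55 and 0.65 when each library was left out.

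Mcl1, which restrains apoptosis, was at 64.0, 139, 71.1 and 140 CPM in the deficient and 42.6 and 61.2 CPM in the wildtype libraries, a log2 fold change of 1.00 (95% interval 0.25 to 1.74). Deficient replicates 1 and 3 were close to wildtype replicate 2, and the heterozygous libraries held 114 to 161 CPM. Of 24 BCL2 family and caspase genes tested 10 were higher and 14 lower, with a median of −0.04.

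The remaining leading genes that were higher shared a pattern over libraries. There were 12 in all: Fam49b, Ddc, Pnrc1, Donson, Cdk17, Tmeff1, Bag1, Wasf1, Usp25, Prkar2a, Cdc73 and Suv39h2. Tmeff1, a transmembrane protein with follistatin-like domains, had the largest log2 fold change among them, 1.51 (95% interval 0.56 to 2.47), at 41.2, 124, 52.8 and 127 CPM against 25.1 and 35.2 CPM. Pnrc1, a nuclear receptor coactivator, was at 60.5, 87.5, 68.2 and 101 against 28.7 and 48.8 CPM (1.03). Bag1, a cochaperone of HSP70, was at 145, 189, 166 and 197 against 83.2 and 124 CPM (0.75). Suv39h2, a histone H3 lysine methyltransferase of the germ line, was at 93.7, 109, 104 and 96.2 against 61.9 and 79.3 CPM (0.51). Wildtype replicate 1 was the lowest of the 6 libraries in 11 of the 12 genes, and deficient replicates 2 and 4 both exceeded replicates 1 and 3 in 9 of the 12. In 11 of the 12, all but Ddc, the 4 heterozygous libraries also lay above both wildtype libraries. These genes were picked for low wildtype values, which makes a wildtype library the lowest and favours heterozygous libraries above wildtype. That choice does not set the order among the deficient replicates. The share over all genes was not counted for any of these patterns.

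Besides Taf4b, 9 leading genes that were lower are reported: Aars2, Sez6, Zfp185, Pemt, Pclaf, Matn2, Plec, Kcnd1 and Eif2ak2. Wildtype replicate 1 was the highest of the 6 libraries in 4 of them. Sez6, a neuronal membrane protein, was at 5.23, 4.40, 5.09 and 6.65 against 11.7 and 10.1 CPM (log2 fold change −1.03). Pclaf, which binds the replication clamp PCNA, was at 13.5, 13.5, 14.45 and 18.1 against 22.6 and 23.1 CPM (−0.62). In 6 of the 9 the heterozygous libraries overlapped the deficient ones and lay apart from wildtype, and in 2, Matn2 and Plec, they overlapped both. Genes picked for high wildtype values favour this too, and the share over all genes was not counted.

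**Figure D3:**
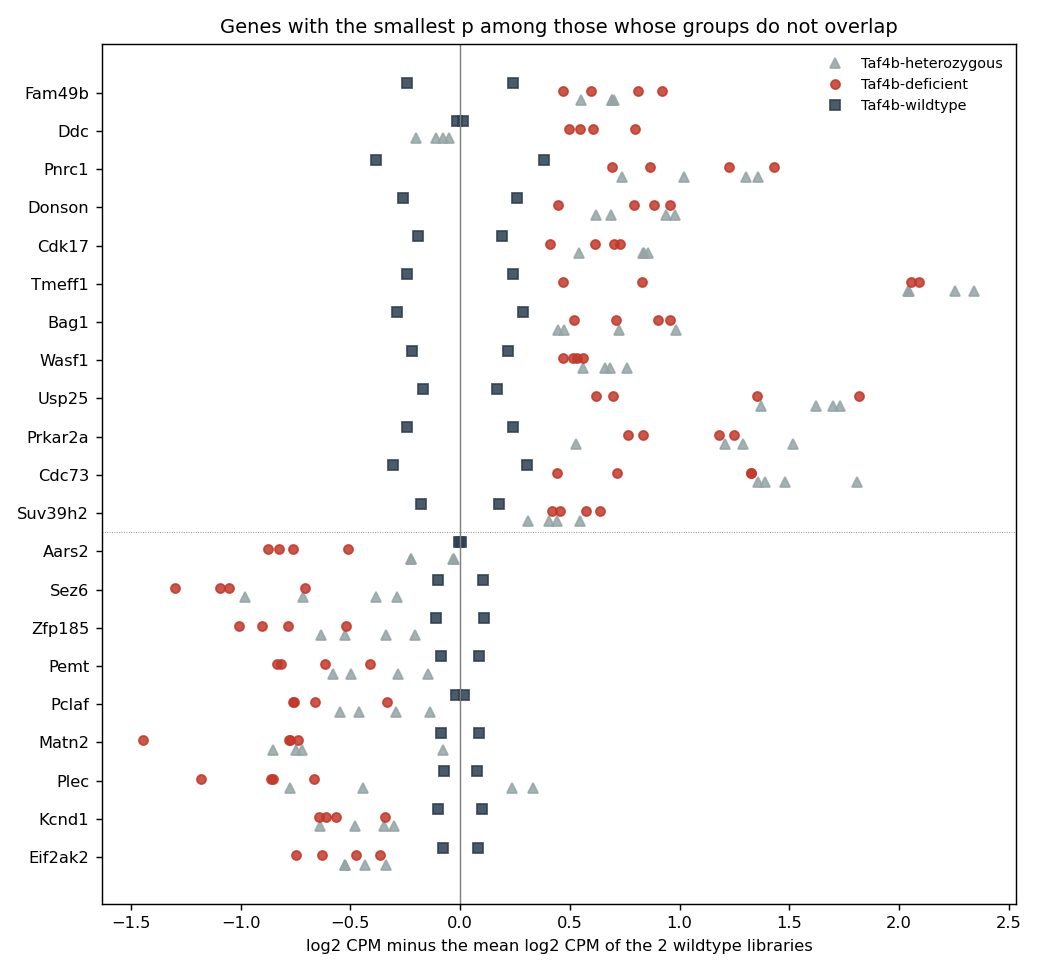
Level of the 12 higher and 9 lower leading genes reported, other than Taf4b, in every library as log2 CPM minus the mean log2 CPM of the 2 wildtype libraries (horizontal axis), by genotype; genes above the dotted line were higher and those below it lower in deficient cells. Heterozygous libraries (triangles) lie on the deficient side for most genes that were higher, below both wildtype libraries for Ddc, and between the groups for Aars2.

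Deficient replicates 2 and 4 also stand apart in a feature of the libraries themselves. Gm23935, a short RNA gene of the annotation, held 454 and 141 CPM in them and 4146 to 5068 CPM in the other 4 libraries compared, and Lars2 2026 and 1136 against 13736 to 16988 CPM. The fit was repeated without these 2 libraries and heterozygous replicate 3, where Gm23935 was at 87.4 CPM. Tmeff1 then had a log2 fold change of 0.64, Usp25 of 0.65, Cdc73 of 0.56 and Mcl1 of 0.38, against 1.51, 1.20, 0.97 and 1.00 with every library. Taf5 stood at 0.53 and Taf10 at 0.48, against 0.84 and 0.74 with every library. Aars2 stood at −0.79 and Ddc at 0.53.

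The promoter stretches of 4 of these genes, Taf5 and Taf10 in TFIID, and Aars2 and Ddc, whose fold change varied little when single libraries were left out, are printed to show the kind of sequence TFIID works at. Each is the 250 bases before the RefSeq start (GRCm38.p6), 5′ to 3′ on the gene's strand, in lower case with GC boxes (GGGCGG or CCGCCC, the motif of Sp1-family factors) in capitals. Positions are chr19:47067498-47067747 (plus) for Taf5, chr7:105744339-105744588 (minus) for Taf10, chr17:45506582-45506831 (plus) for Aars2 and chr11:11898145-11898394 (minus) for Ddc. Aars2 and Ddc each have 2 starts in the table, and the upstream one was used.
Taf5: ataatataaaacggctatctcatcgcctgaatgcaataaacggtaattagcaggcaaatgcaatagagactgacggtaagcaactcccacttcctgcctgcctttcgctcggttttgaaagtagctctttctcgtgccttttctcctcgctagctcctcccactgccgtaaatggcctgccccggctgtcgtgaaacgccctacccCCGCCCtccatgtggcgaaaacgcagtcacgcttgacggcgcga
Taf10: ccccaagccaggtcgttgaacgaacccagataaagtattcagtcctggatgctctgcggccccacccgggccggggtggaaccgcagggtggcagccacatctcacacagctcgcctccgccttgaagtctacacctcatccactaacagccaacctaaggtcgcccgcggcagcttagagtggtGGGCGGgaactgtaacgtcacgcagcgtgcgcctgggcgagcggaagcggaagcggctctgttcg
Aars2: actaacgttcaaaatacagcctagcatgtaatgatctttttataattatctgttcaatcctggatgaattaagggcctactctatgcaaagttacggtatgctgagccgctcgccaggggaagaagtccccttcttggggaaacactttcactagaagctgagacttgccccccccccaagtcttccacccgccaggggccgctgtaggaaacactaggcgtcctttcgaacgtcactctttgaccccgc
Ddc: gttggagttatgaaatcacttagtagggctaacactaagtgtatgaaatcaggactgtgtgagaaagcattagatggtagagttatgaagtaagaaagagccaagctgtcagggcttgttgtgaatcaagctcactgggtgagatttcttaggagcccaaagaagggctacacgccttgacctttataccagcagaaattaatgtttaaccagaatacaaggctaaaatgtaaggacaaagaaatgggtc

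Taf5 and Taf10 hold 1 GC box each, on opposite strands, and Aars2 and Ddc hold 0. None of the 4 holds a CCAAT box (CCAAT or ATTGG). Over 32851 promoter windows of this length, 32.7% hold a GC box and 33.8% a CCAAT box, so the presence or absence of either is common. No match says only that these letters are not in this window. The factors that bind these motifs were measured too: of 7 Sp and NF-Y genes 5 were lower in deficient cells, with a median log2 fold change of −0.22 that turned to 0.11 without the libraries low in Gm23935. Sp1 stood at 77.1, 49.3, 87.2 and 47.6 CPM against 96.8 and 83.5 CPM.

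Immediate early genes, which cells switch on within minutes of an outside signal, were mostly higher in deficient cells. Of 25 tested 20 were higher, with a median log2 fold change of 0.32 beside 0.00 over all genes, and 2 stood at an unadjusted p under 0.05. Jund, a subunit of the AP-1 transcription factor, was at 19.3, 33.6, 21.3 and 35.4 CPM in the deficient and 11.3 and 15.9 CPM in the wildtype libraries. Its log2 fold change was 1.01, and 0.58 without the libraries low in Gm23935. Ier5 was at 8.88, 11.5, 9.43 and 10.2 against 4.62 and 6.97 CPM (0.79). Both were as high in heterozygous cells, at 28.4 to 43.4 CPM for Jund and 9.14 to 13.2 CPM for Ier5. Averaged over the list, log2 CPM was 3.32, 3.04, 3.12 and 3.81 in deficient replicates 1 to 4 and 3.17 and 2.97 in the wildtype libraries. Only deficient replicates 1 and 4 exceeded both wildtype libraries. In the comparison of these 2 alone, which were picked by stage, 23 of 25 genes were higher (median 0.45). That count follows from the levels just given and adds no support. With litter date as a term the median over the 4 libraries was 0.05. Without deficient replicate 4 the median was 0.10, over the litters of January 29 and March 1 it was 0.08, and without wildtype replicate 1 it was 0.52.

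Growth and housekeeping lists differed by small amounts with narrow intervals. Of 44 proteasome genes 40 were higher, with a median log2 fold change of 0.13, and 43 had an interval within 2-fold. Against wildtype replicate 1 alone 26 of the 44 were higher, and without wildtype replicate 2 the fitted median was 0.03. Of 77 nuclear genes of the respiratory chain 63 were higher (0.07), with 76 intervals within 2-fold. Of 54 genes of mitotic G2 and M phase 43 were higher (0.06), with 53 within 2-fold, and of 49 DNA replication genes 29 were higher (0.03), with 48 within 2-fold. Of 77 cytosolic ribosomal protein genes 59 were lower, with a median of −0.07, and in deficient replicates 1 and 4 alone 73 of 77 were lower (−0.16). Averaged over this list, log2 CPM was 8.37, 8.37, 8.48 and 8.11 in deficient replicates 1 to 4. It was 8.55 and 8.34 in wildtype replicates 1 and 2. Only deficient replicate 4 lay below both wildtype libraries, and without that replicate the median of the main comparison was −0.01. No member of these 5 lists was called, and members of a list vary together across libraries, so their counts are not counts of independent results.

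**Figure D4:**
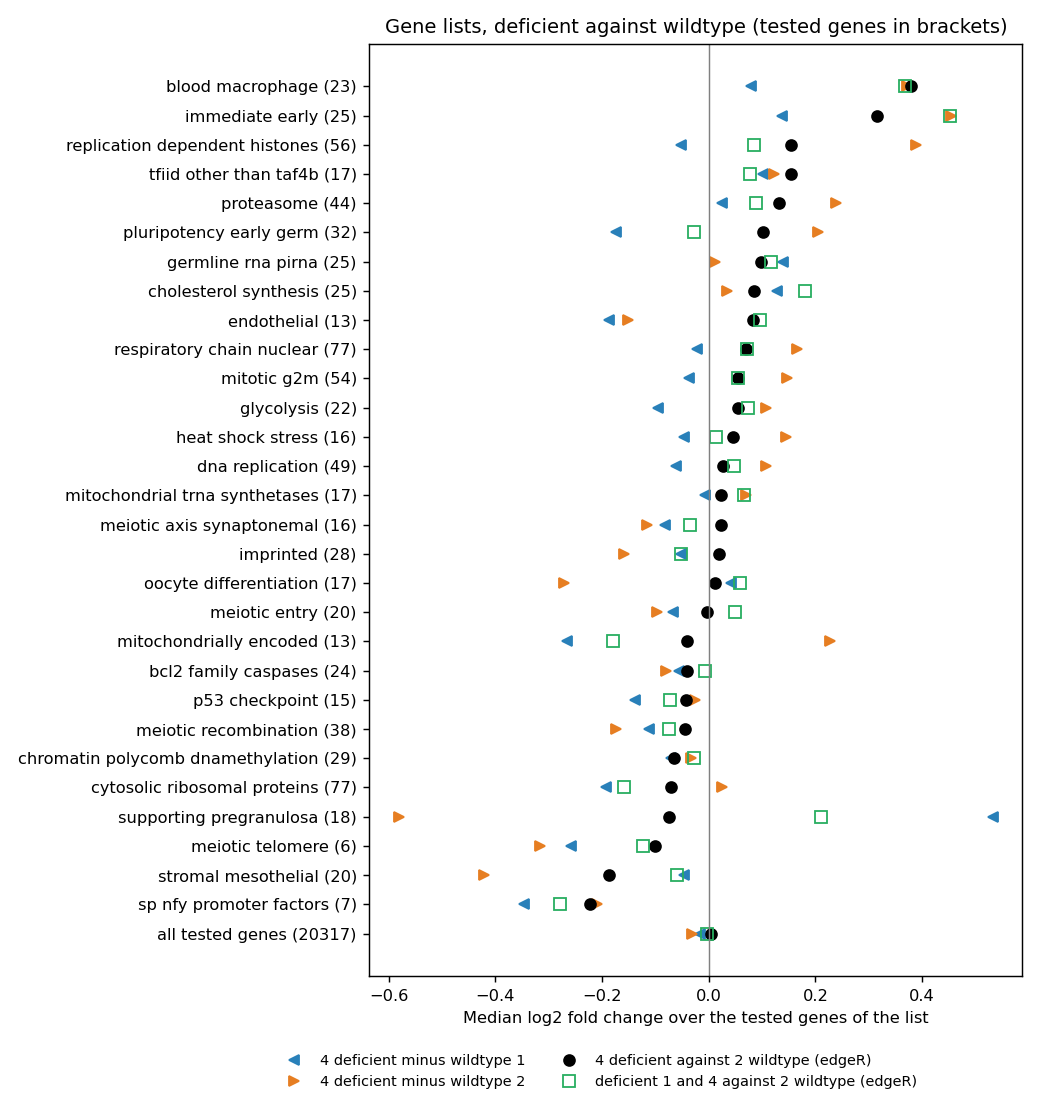
Median log2 fold change over the tested genes of each list, for all 4 deficient libraries against both wildtype libraries (circles), against each wildtype library singly (triangles, differences of mean log2 CPM) and for deficient replicates 1 and 4 (squares). The left and right triangles lie on opposite sides of 0 for supporting cell genes, at 0.53 and −0.58, and for cytosolic ribosomal proteins, at −0.19 and 0.02.

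Which wildtype library served as the reference set the direction of several lists. Against wildtype replicate 1 the ribosomal protein genes had a median log2 difference of −0.19, and against wildtype replicate 2 of 0.02. The 13 mitochondrially encoded genes went from −0.27 to 0.23, and 56 replication-dependent histone genes from −0.05 to 0.39. Respiratory chain genes went from −0.02 to 0.17 and G2 and M phase genes from −0.04 to 0.15. The 18 supporting cell genes went from 0.53 to −0.58, the wildtype libraries themselves being 1.25 apart. Differences of mean log2 CPM can also differ in sign from the fitted median, as for the axis and synaptonemal complex genes, at −0.08 and −0.12 against the single libraries beside the fitted 0.02. The medians of 5 lists kept their sign in every alternative analysis and were higher against each wildtype library. These were the immediate early, proteasome, cholesterol synthesis, TFIID, and blood and macrophage lists. The last had medians of 0.08 and 0.37 against wildtype replicates 1 and 2. Its mean log2 CPM was low, at −0.43 to 0.35 in the 6 libraries.

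Within litter dates the comparisons rest on few libraries. Deficient replicates 1 and 2 minus wildtype replicate 1, all of January 29, gave a median of −0.55 for the pluripotency list and 0.20 for the meiotic telomere list. Deficient replicate 3 minus wildtype replicate 2, both of March 1, gave 0.93 and −1.68. Each of these has 1 wildtype library and no test. The pluripotency list is part of the stage level, so its values are not separate from the stage levels above. Other lists had the same sign on both dates, such as TFIID genes at 0.21 and 0.04, immediate early genes at 0.03 and 0.17, and nuclear respiratory chain genes at 0.04 and 0.09. Deficient replicate 4 has no wildtype library of its date.

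Some pluripotency genes differed by larger amounts. Klf2, a factor of the naive pluripotent state, stood at 12.2, 23.8, 16.1 and 35.9 CPM in the deficient and 11.1 and 7.81 CPM in the wildtype libraries, with a log2 fold change of 1.22 (95% interval 0.27 to 2.16). Without the libraries low in Gm23935 its log2 fold change was 0.58. Sox2, a partner of OCT4, was at 21.3, 29.3, 39.5 and 44.16 against 18.1 and 17.8 CPM (0.90, 95% interval −0.02 to 1.83). Lefty1, an inhibitor of NODAL signalling, was at 0.230 to 0.451 CPM in the deficient and 1.16 and 1.04 CPM in the wildtype libraries (−1.75, 95% interval −2.79 to −0.71). None was called (edgeR adjusted p = 0.999909 each). Over 32 tested genes of the list 24 were higher, with a median of 0.10 that became −0.21 without deficient replicate 3.

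Chromatin regulators and the piRNA pathway showed values of the same small size. Of 29 Polycomb, DNA methylation and other chromatin genes 11 were higher (median −0.06), among them Eed, a core subunit of Polycomb repressive complex 2, at 81.0, 101, 112 and 116 against 74.2 and 72.6 CPM (0.48), and the de novo methyltransferase Dnmt3b (0.44). Of 25 germline RNA and piRNA genes 19 were higher (0.10). Tdrd5, needed for retrotransposon silencing in germ cells, had the lowest p of them, at 125, 110, 110 and 145 against 62.2 and 109 CPM (0.52). Wildtype replicate 1 alone was low for Tdrd5, and without it the log2 fold change was 0.17. Of the 15 genes tested within 2 Mb of Taf4b 7 were higher and 8 lower, with a median of −0.03, and none was called.

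Hspa1a and Hspa1b, inducible HSP70 chaperones, separated the libraries by litter date and not by genotype. The 4 libraries of March 7, deficient replicate 4 and heterozygous replicates 1 to 3, held 11.3 to 25.4 CPM of Hspa1a and 40.7 to 65.8 CPM of Hspa1b. The 6 libraries of January 29 and March 1 held 0.460 to 1.96 and 1.94 to 9.34 CPM. No wildtype library is dated March 7. The log2 fold change of Hspa1a, deficient against wildtype, was 2.61 with all libraries and −0.23 over the litters of January 29 and March 1 alone, a fit chosen after the data were seen. That of Hspa1b went from 1.93 to −0.45. Neither was called (edgeR adjusted p = 0.999909). Bag1, their cochaperone and a leading gene, stood at 0.67 in that fit against 0.75.

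**Figure D5:**
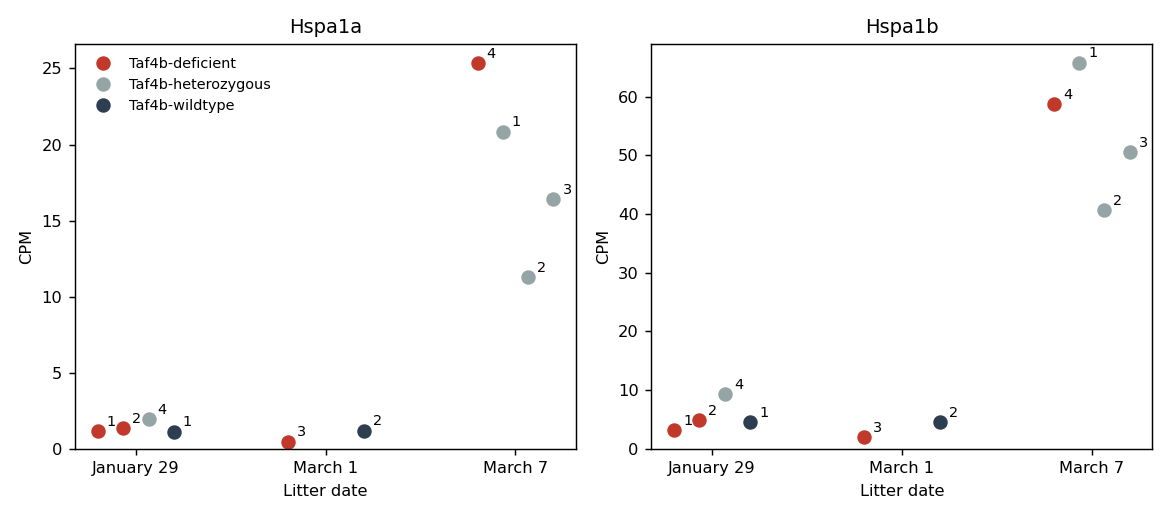
CPM of Hspa1a and Hspa1b in each library by litter date, coloured by genotype and numbered by replicate. The 4 libraries of March 7 lie above all 6 others for both genes.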

How the data were processed

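RNA from sorted E14.5 germ cells was sequenced in 10 libraries, of which 4 deficient and 2 wildtype were compared. The authors trimmed reads with Trim Galore 0.5.0, checked them with FastQC 0.11.5, aligned them to GRCm38 with HISAT2 2.1.0 and used SAMtools 1.9 (from the submitters' processing notes). Those notes name featureCounts (Subread 1.6.2), which gives counts as deposited, and StringTie 1.3.3b, which gives TPM as deposited. No source used here states the strand setting or annotation release, so overlapping and antisense genes cannot be told apart, and near-identical copies (Hspa1a and Hspa1b, globins, histones) may share reads. A deposited table of DESeq2 output was not used, since its contrast is not named.

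Counts per library ran from 30040675 to 37739826 in the 6 compared. Genes passing filterByExpr were fitted with edgeR 4.0.16 (TMM scaling, quasi-likelihood test, 3 genotype groups, 10 libraries) in R 4.3.3. P-values were adjusted by Benjamini-Hochberg over all 20317 genes. A gene was called at an adjusted p under 0.05. CPM used TMM library sizes, log2 CPM a prior count of 2, and 95% intervals the test's SE. Gene positions came from GENCODE on GRCm38, which matched all 55536 genes. DESeq2 1.42.0, limma 3.58.1 (voom, and log2(TPM + 0.1) or log2(TPM + 1)), other scalings, filters, litter date, stage, the replicate number and left-out libraries were alternatives. Scripts were tested on simulated data.

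Members and gene lists were chosen with earlier results of these data known. The text names Taf4b, and, in each direction, up to 12 genes of smallest unadjusted p with at least 5 CPM, groups that do not overlap, and no clone or model name; 2 genes that meet this rule are not reported here. It also names up to 3 genes of smallest p per list, and set meiotic, TFIID and marker genes. No 2 libraries agreed within sampling noise (lowest chi-square per degree of freedom 9.61).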

Additional observations from a re-analysis of the deposited data

Results flagged for a closer look

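In 191 groups of 4 deficient values (named genes, markers and list levels), 14 had 1 library set apart from the other 3 by a gap above Dixon's 95% critical value. Chance alone flags about 1 group in 20. Deficient replicate 4 was set apart in 9 of them. The red cell genes Hbb-bs, Hbb-bt, Hba-a1 and Hba-a2 stood at 4.08, 2.46, 6.41 and 1.43 CPM there, and the heat shock genes Hspa1a and Hspa1b at 25.4 and 58.7 CPM. The same library had Fst, a supporting cell gene, at 5.38 CPM, and Tek, an endothelial receptor, at 1.99 CPM. It also had the lowest Rpsa, a ribosomal protein gene, at 804 CPM.

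Deficient replicate 2 was set apart on the low side for Matn2 (3.30 CPM), for Nr5a1, a supporting cell transcription factor (0.944 CPM), and for the mean log2 CPM of the endothelial list (0.57). Deficient replicate 3 was set apart on the high side for Esam (1.58 CPM) and for AC102055.1, an unnamed gene near Taf4b (2.63 CPM). Their part in the group differences was not tested beyond leaving each library out.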

How the results depend on the processing

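Of 25 alternative analyses of the main comparison, 5 called 1 gene in place of 0, and that gene was Taf4b each time. Its log2 fold change was −1.55 without a filter on low counts (adjusted p = 0.000772), −1.56 in DESeq2 (2.03e-07), −1.58 in limma-voom with sample weights (0.00968), −1.53 with meiotic stage as a covariate (0.0273) and −1.56 without heterozygous replicate 1 (0.00731). Over all libraries left out in turn the count ran from 0 to 1 and the Taf4b log2 fold change from −1.77 to −1.33. The count at an unadjusted p under 0.05 ran from 269, without the libraries low in Gm23935, to 1379 in limma-voom, and was 320 without wildtype replicate 1. With the replicate number as a block, 0 genes were called and Taf4b stood at −1.63 (edgeR adjusted p = 0.413). The numbers are shared names only, since litter dates do not follow them. Deviations of same-numbered libraries from their group means correlated at 0.081 and 0.090. With 2 wildtype libraries their deviations are mirror images, so each value has its opposite at the other wildtype library. With litter date as a term 0 genes were called and Taf4b stood at −1.46.

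In the comparison of deficient replicates 1 and 4, DESeq2 called 2 genes, with Taf4b at −1.62 (adjusted p = 0.00212). Without a filter edgeR called 176, of which 161 were higher, with Taf4b at −1.58 (3.79e-06). All 176 were in the filtered table too, and 156 had an unadjusted p under 0.05 there. Without the filter the fit of 39417 genes gave these genes a median of 197085 degrees of freedom, against 9.35 with it, so it treated the spread as known. The stage difference ran from −0.58 to 0.28 as libraries were left out. For 159 other named genes, 3790 of 3940 values lay within 1 SE of the value reported and none was called. A value within 1 SE can still change sign. Taf7l did so most often, in 9 settings, and Pecam1 in 8, while Aars2 and Ddc kept their sign in every setting. The fit without March 7 litters was added after the data were seen; it called 0 genes. With 2 wildtype libraries, 2-fold changes were mostly below what the test could call. In simulated counts it called 8% of them, in genes drawn without regard to level.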

Other observations

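Of 23 blood and macrophage genes tested 16 were higher in deficient cells, and 14 against wildtype replicate 1 alone, while the sum over 12 markers did not separate the groups. The macrophage receptor Csf1r stood at 5.70, 4.17, 4.93 and 2.68 CPM in the deficient and 3.57 and 3.14 CPM in the wildtype libraries, which overlap. C1qc, a complement component made by macrophages, stood at 2.80, 2.23, 2.23 and 1.35 CPM in the deficient and 1.06 and 1.26 CPM in the wildtype libraries, and Laptm5, a lysosomal protein of blood cells, at 3.72, 3.15, 2.20 and 2.12 against 1.26 and 1.46 CPM. These 2 were chosen as the members of lowest p that separate the groups, and neither was called (edgeR adjusted p = 0.999909). In heterozygous libraries C1qc was at 0.524 to 0.988 CPM. The embryonic globin Hbb-y had 9.69 CPM in wildtype replicate 2, 1.42 CPM in heterozygous replicate 4, and 0 in the other 8 libraries.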
